A study of Mus musculus with 4 samples.

Results

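The 10 genes described here mark dendritic cells or encode ligands with which antigen-presenting cells stimulate or restrain T cells. They were taken by name (Flt3, Zbtb46, Xcr1, Clec9a, Cd209a, Ly75, Cd80, Cd86, Cd83 and Cd274), and every non-control spot of the arrays that carries one of these names was used, whatever its value. They are 10 of 37066 gene names on the array and have 23 of its 56605 probes, each printed as 1 spot. RNA of whole colon from C57BL/6 mice was measured on 4 single-colour Agilent arrays, 2 from Junb fl/fl Cd4-Cre mice and 2 from Junb fl/fl control mice, on day 5 of dextran sulphate sodium (DSS) in the drinking water, which damages the gut lining and causes colitis. Every mouse carried the floxed Junb alleles and every mouse received DSS, so no untreated colon enters the comparison. Junb encodes an AP-1 transcription factor, and the Cd4-Cre transgene removes it mainly from T cells. Which cells gave the signals described here was not tested. The labels give neither the age nor the sex of the mice. The comparison asks how the colon transcriptome of the mice lacking Junb in T cells, described by the submitters as more severely affected by DSS, differs from that of the controls.

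Dendritic cells take up antigen in the gut wall, carry it to lymph nodes and present it to T cells. Conventional dendritic cells depend on the receptor Flt3 and express the transcription factor Zbtb46. Type 1 conventional dendritic cells (cDC1) bear the chemokine receptor Xcr1 and Clec9a, which binds dying cells, and type 2 cells (cDC2) and monocyte-derived cells can bear the lectin Cd209a. The ligands Cd80 and Cd86 engage Cd28 and Ctla4 on T cells, and Cd274 (PD-L1) engages the inhibitory receptor Pdcd1 (PD-1). Cd274 is also made by epithelial, endothelial and other cells, and is a well-known target of interferon gamma. In RNA of a whole organ, fewer cells of a type and less RNA per cell cannot be told apart.

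The arrays had 27936 to 29090 probes well above background and no saturated spot. Across 19326 genes, Pearson's r was 0.982 for the 2 mutants and 0.976 for the 2 controls, the lowest of any pair. By Xist and Eif2s3y, each genotype had 1 female colon (replicate 1) and 1 male colon (replicate 2). The log2 signal of Xist was -0.77 and -6.43 in mutant replicates 1 and 2, against -0.55 and -6.13 in control replicates 1 and 2. Junb itself had 4.44 and 4.47 in the mutants, against 4.23 and 4.39 in the controls (difference 0.15 ± 0.11, SE, n = 2 and 2, limma adjusted p = 0.691), which in whole tissue is no check of a deletion limited to T cells. All log2 signals below are relative to the upper quartile of the array, and all differences are mutant minus control.

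Of the 10 genes, 7 had a probe well above background on at least 2 arrays, and 3 (Zbtb46, Xcr1 and Clec9a) had none above background on any array. Cd274 was higher on both mutant arrays than on both control arrays, at 1.70-fold. Of the other 6 measured genes, Flt3 was lower on both mutant arrays by a small margin, and the groups overlapped for Cd209a, Ly75, Cd80, Cd86 and Cd83. None of these differences passed an adjusted p of 0.05 in limma. Neither did any other gene: 0 of 19326 were called (percent called 0), with a smallest adjusted p of 0.373, while 1796 genes (9.29%) had an unadjusted p under 0.05. Among the 7 measured genes, 1 had a higher signal in the mutants at an unadjusted p under 0.05 and 0 a lower one, where 5.31% and 3.98% of all genes tested did, and 2 of 7 had groups that did not overlap, against 43.2% of all genes tested.

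The probes behind the values are oligonucleotides, and the signal of a gene depends on which stretch of its transcript was printed on the array. The opening 30 of the 60 bases are shown here in lower case for the probes on which the comparisons turn: the single probes of Cd274 and Cd83, the brighter probe of Flt3 and of Cd209a, and the probe pairs of Cd80 and Cd86 that gave unlike results. Letters run 5′ to 3′ as the array files give them.
Cd274, probe 1: ttgatgagtctcatgttaatgtcttgtttg
Cd83, probe 1: agctattgcgccacgacaggaggaagttct
Flt3, probe 1: agatgctgtctgccattactccaaagtgac
Cd209a, probe 1: ggacatggtgagcctcaatgttatagacct
Cd80, probe 1: aaaggagaggtgcctagtcttactgcaact
Cd80, probe 2: gattcctggaagtggcttttgctctttgga
Cd86, probe 1: ctggccagttaccaacatgttctgtacaga
Cd86, probe 2: caagagtttccatctcctcaaacgtattgg

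On the mm9 build of the array design, the Cd274 probe lies at chr19:29462363-29462422 (+ strand), the Cd83 probe at chr13:43898276-43898335 (+), Flt3 probe 1 at chr5:148142576-148142635 (-) and Cd209a probe 1 at chr8:3743481-3743540 (-). Cd80 probe 1 lies at chr16:38486772-38486831 (+) and probe 2 at chr16:38495628-38495688 (+). Cd86 probe 1 lies at chr16:36603961-36604020 (-) and probe 2 at chr16:36615381-36615440 (-). The design of the array assigns all of them to the transcripts of their genes. Exon and UTR boundaries on mm9 were not used here.

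The genes that define conventional dendritic cells were at the limit of the arrays. Zbtb46, the transcription factor of the conventional lineage, had 4 probes, with processed signals between 3.08 and 13.9 intensity units and none well above background. The single probe of Xcr1, the receptor by which cDC1 cells respond to Xcl1, gave 4.23 and 3.38 in the mutants, against 4.96 and 5.30 in the controls. These values lie below the lowest signal that counted as well above background, which was between 12.3 and 21.0 on the 4 arrays. The brighter of 2 probes for Clec9a, the cDC1 receptor for exposed actin of dead cells, gave 15.1 and 14.4 in the mutants, against 21.4 and 23.9 in the controls. Both mutant values of that Clec9a probe were below both control values, but on no array did the probe count as above background, so no fold is given. A change in these 3 genes was not detectable at this signal, and the label of the list as dendritic cell markers rests, in these samples, on Flt3, Cd209a and Ly75.

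**Figure D1:**
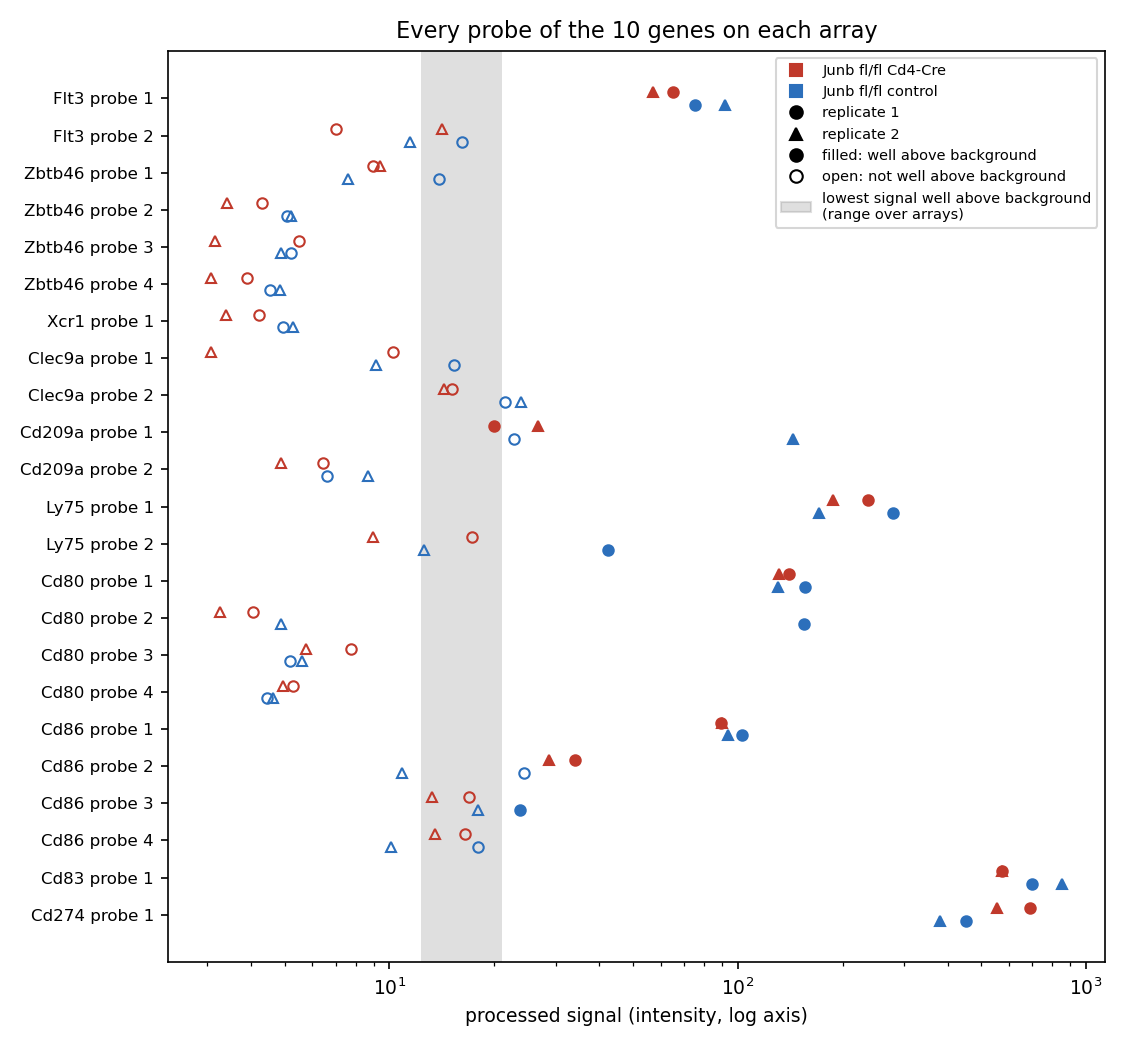
Processed signal (intensity, log axis) of all 23 probes of the 10 genes on each array, with Junb fl/fl Cd4-Cre arrays in red above Junb fl/fl control arrays in blue, circles for replicate 1 and triangles for replicate 2. Filled points were well above background, open points were not, and the grey band spans the lowest signal well above background on the 4 arrays (12.3 to 21.0). The probes of Zbtb46, Xcr1 and Clec9a have open points only, and Cd274 and Cd83 lie far to the right of the band.

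Flt3, the receptor tyrosine kinase whose ligand sustains dendritic cells and their progenitors, was measured by 1 of 2 probes. Its log2 signal was -2.25 and -2.23 in the mutants, against -2.13 and -1.84 in the controls. Both mutant colons were below both control colons. The difference was -0.26 ± 0.21 (SE, 95% interval -0.78 to 0.27, n = 2 and 2, limma adjusted p = 0.710), a 1.20-fold lower signal that did not pass the test. Flt3 was the single gene of the 7 whose groups did not overlap with the mutants lower, where 17.6% of all genes tested were so arranged. Flt3l, the ligand, differed by -0.05 ± 0.15 and overlapped between the groups.

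Cd209a, a C-type lectin of cDC2 and monocyte-derived dendritic cells, gave a difference that was set by 1 array. Probe 1 read -3.96 and -3.33 (log2) in the mutants, against -3.86 and -1.19 in the controls. Control replicate 2 stood apart from the other arrays, at a processed signal of 144 intensity units against 22.8 in control replicate 1, which did not count as above background, and 20.0 and 26.7 in the mutants. The difference of -1.12 ± 0.89 (SE, limma adjusted p = 0.710, n = 2 and 2) became 0.21 without control replicate 2 and -2.46 without control replicate 1. The other Cd209a probe was not above background on any array. Cd209a belongs to a cluster of closely related paralogs, of which 3 of 6 were tested: Cd209g differed by 0.63 ± 0.33, Cd209d by -0.66 ± 0.38 and Cd209f by -0.15 ± 0.42, each with overlapping groups. Hybridisation of one paralog's RNA to another's probe was not tested.

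Ly75 (DEC-205), an endocytic receptor of dendritic cells that epithelial cells also make, gave log2 signals of -0.39 and -0.52 on its brighter probe in the mutants, against -0.24 and -0.94 in the controls. The 2 mutant values lay between the 2 control values. The difference was 0.13 ± 0.26 (SE, 95% interval -0.53 to 0.80, limma adjusted p = 0.891, n = 2 and 2), and it was -0.21 without control replicate 2 and 0.48 without control replicate 1. Its second probe was above background in control replicate 1 only, at 42.3 intensity units.

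The ligands for Cd28 showed no detectable difference on their brighter probes. Cd80 (B7-1), which activated antigen-presenting cells put on their surface, gave log2 signals of -1.15 and -1.03 in the mutants, against -1.08 and -1.33 in the controls. The groups overlapped, and the difference was 0.12 ± 0.17 (SE, 95% interval -0.32 to 0.56, limma adjusted p = 0.848, n = 2 and 2). That interval holds differences of either sign and does not show that Cd80 was level.
Cd86 (B7-2), which dendritic cells carry at rest and raise on activation, had -1.80 and -1.58 in the mutants, against -1.68 and -1.81 in the controls. The groups overlapped again, and the difference was 0.06 ± 0.19 (SE, 95% interval -0.42 to 0.54, adjusted p = 0.938).

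Further probes of both genes did not repeat these values. Cd80 probe 2 gave 4.07 and 3.26 intensity units in the mutants, against 155 and 4.87 in the controls. The single bright spot was on control replicate 1, and probe 1 on the same array gave 156 units. The other Cd80 probes were below background throughout.
Cd86 probe 2 was well above background in both mutants and in neither control, with 34.2 and 28.8 intensity units in the mutants, against 24.4 and 10.9 in the controls. The measured difference of that probe was 1.14 ± 0.46 (limma adjusted p = 0.617 over all probes tested). It passed the filter only through the mutant arrays, so the filter itself favoured a higher mutant value and no fold is given. Cd86 probe 3 lay lower on both mutant arrays, at 16.9 and 13.3 units in the mutants, against 23.6 and 18.0 in the controls, and was above background in control replicate 1 only. The mean of probes 1 and 2, which passed the filter, differed by 0.597 (limma adjusted p = 0.619). That mean joins 0.06 for probe 1 with 1.14 for probe 2, and probe 3 differed by -0.27. Given how probe 2 passed, the shared sign of probes 1 and 2 is no support for a higher Cd86.

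Cd83, a surface protein of mature dendritic cells that B cells and activated T cells also carry, was bright on all 4 arrays. Its log2 signal was 0.88 and 1.097 in the mutants, against 1.08 and 1.38 in the controls. The higher mutant array lay just above the lower control array. The difference was -0.24 ± 0.16 (SE, 95% interval -0.65 to 0.17, limma adjusted p = 0.664, n = 2 and 2), with -0.20 between the female colons and -0.28 between the male colons.

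Cd274, the ligand by which many cells restrain T cells through Pdcd1, had the smallest p of the 7 genes. Its log2 signal was 1.15 and 1.04 in the mutants, against 0.45 and 0.21 in the controls. Both mutant colons were above both control colons, and the gap between the groups was larger than the spread within either (SD 0.07 in the mutants and 0.17 in the controls). The difference was 0.77 ± 0.14 (SE, 95% interval 0.41 to 1.12, n = 2 and 2), with 0.70 between the female colons and 0.83 between the male colons. The unadjusted limma p was 0.00267, rank 118 of 19326 genes, and the adjusted p was 0.418, so the difference is not called. Cd274 was 1 of 7 genes with an unadjusted p under 0.05 and a higher signal in the mutants, where 5.31% of all genes tested were so. It was likewise 1 of 7 whose groups did not overlap with the mutants higher, against 25.7% of all genes tested. Without any 1 array the difference stayed between 0.64 and 0.89.

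**Figure D2:**
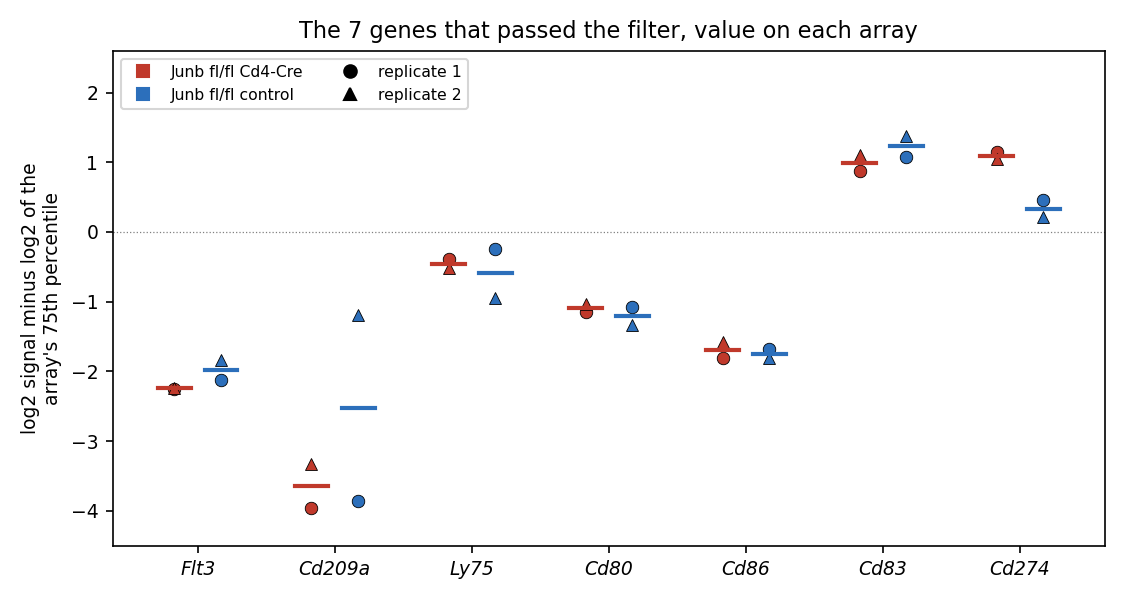
Log2 signal of the 7 genes that passed the filter on background, relative to the upper quartile of each array, with the 2 Junb fl/fl Cd4-Cre arrays in red left of the 2 Junb fl/fl control arrays in blue and the group mean as a bar. Heights are not comparable between genes, since each has its own probe. The mutants lie above the controls for Cd274 (1.15 and 1.04 against 0.45 and 0.21), and the Cd209a control mean is pulled up by replicate 2 at -1.19.

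**Figure D3:**
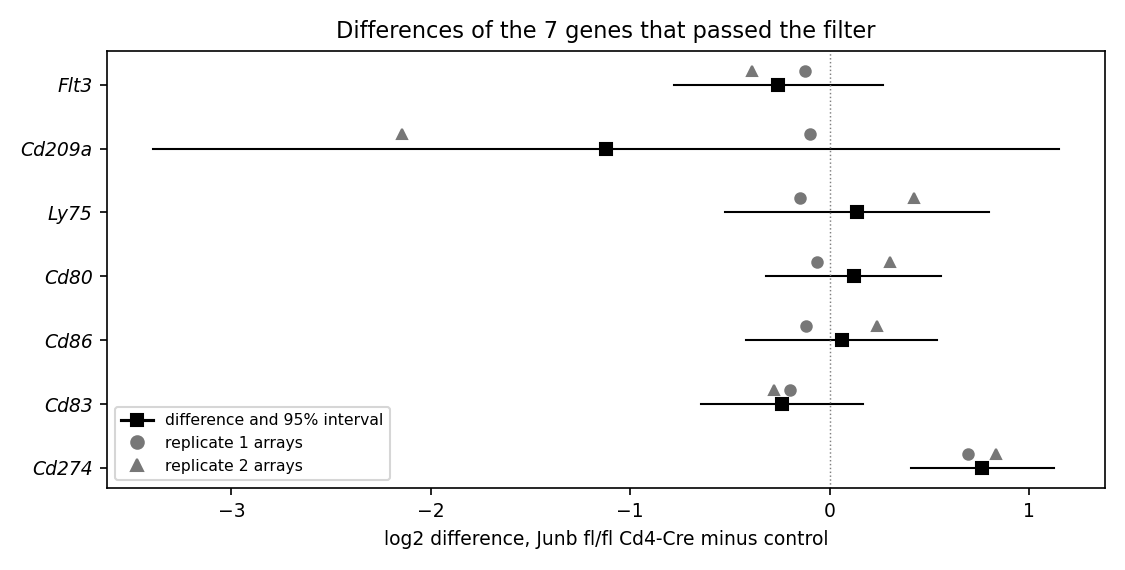
Log2 difference of each of the 7 genes, Junb fl/fl Cd4-Cre minus control (squares, with the 95% interval of limma), and the difference within the replicate 1 arrays (circles, female colons) and the replicate 2 arrays (triangles, male colons). The Cd274 interval of 0.41 to 1.12 lies above 0, and the other 6 include 0.

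The error model of the Agilent Feature Extraction software gave the probes that represent Flt3, Ly75, Cd80, Cd86, Cd83 and Cd274 an error of at most 11.6% of their signal on every array. That is an error of single spots and does not measure the spread between mice. Of the 7 genes, 4 had a difference above 0 and 3 below 0, with a median of 0.06, where the median over all genes tested was 0.02. None of the 7 combined a 2-fold difference with an unadjusted p under 0.05, as 1.36% of all genes tested did.

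Other genes of the same cells and of the same ligand families came from lists chosen by known function, with earlier results of these data known. Among other cDC1 genes, 9 of 10 were tested, with 2 differences above 0 and 7 below, and a median of -0.12. Irf8, a transcription factor that cDC1 cells require and that macrophages, B cells and epithelium also express, was 4.29 and 3.998 in the mutants, against 3.62 and 3.44 in the controls (difference 0.62 ± 0.15, limma adjusted p = 0.418). Both mutants were above both controls.
The adhesion gene Cadm1 (-0.44 ± 0.16) and the integrin gene Itgae (-0.52 ± 0.19), which intraepithelial T cells share with cDC1, were lower on both mutant arrays, each with an unadjusted p under 0.05 that was lost without any 1 of the 4 arrays. Batf3, the cDC1 transcription factor, differed by -0.07 ± 0.18 and lies outside the naming rule.

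Other cDC2 genes had a median of -0.07 (7 of 8 tested, 3 above 0 and 4 below), which was 0.03 without mutant replicate 1 or control replicate 1 and 0.02 without control replicate 2. The median of -0.07 was the value of Klf4, the brightest tested gene of the list, named outside the rule. Klf4 had a mean log2 signal of 6.64 in the mutants and 6.71 in the controls, and which cells gave it was not tested. The lectin Mgl2, shared by cDC2 and macrophages, was 4.98 and 4.80 in the mutants, against 4.43 and 4.33 in the controls (0.52 ± 0.12), and the mean of its passing probes differed by 0.92. The transcription factor Zeb2 was lower on both mutant arrays (-0.37 ± 0.14), and Itgam (CD11b) overlapped (0.16 ± 0.14). Neither Mgl2 nor Zeb2 passed the adjusted threshold (adjusted p = 0.418 and 0.536).
The list of lineage and growth factor genes had a median of -0.05 over 7 tested of 8, the value of Id2, also named outside the rule. That median was -0.16 with all passing probes averaged, 0.05 without mutant replicate 1 and 0.01 without control replicate 2 or without the filter on dim probes. Itgax, which encodes CD11c, was 0.51 and 0.03 in the mutants, against 0.59 and 0.67 in the controls (-0.36 ± 0.19). Csf2rb, a shared receptor chain for granulocyte-macrophage growth factor, differed by 0.39 ± 0.18, and another of its 3 probes gave -0.25.

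Genes of mature and migrating dendritic cells had a median of -0.00406 over 8 of 10 tested (4 above 0, 4 below), which was 0.22 without mutant replicate 1. The chemokine Ccl17, which mature dendritic cells secrete to draw Ccr4-bearing T cells, was -2.28 and -2.13 in the mutants, against -3.45 and -3.16 in the controls. Both mutants were above both controls, by 1.101 ± 0.24 (limma adjusted p = 0.418). The difference was 0.52 after another background correction (normexp), which shrinks differences of dim probes by construction. Fscn1, an actin-bundling protein of mature dendritic cells, differed by 0.53 ± 0.27 in the same direction. The lymph node homing receptor Ccr7, outside the naming rule, differed by 0.10 ± 0.16, and its other passing probe gave -0.38.
The plasmacytoid list had a median of -0.11 over 7 of 8 tested, which was 0.05 without control replicate 1. Its interferon-inducible member Bst2 was higher on both mutant arrays (0.42 ± 0.12), and Spib, shared with B cells and M cells, was lower on both (-0.31 ± 0.11).

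Among other costimulatory ligands, 6 of 9 were measurable, with 4 differences above 0, 2 below and a median of 0.22, which was -0.03 without the filter on dim probes. Tnfsf9 (4-1BB ligand), which stimulates T cells through Tnfrsf9, was -1.83 and -1.86 in the mutants, against -2.61 and -2.34 in the controls (0.63 ± 0.21, limma adjusted p = 0.481), and the difference was 0.34 after normexp. Cd276 (B7-H3) differed by 0.32 ± 0.20, and Cd40, which is a receptor though placed in this list, by 0.30 ± 0.24. Both mutants were above both controls for each gene. Pdcd1lg2 (PD-L2), the other ligand of Pdcd1 and outside the naming rule, differed by 0.14 ± 0.29 with overlapping groups.
The list of receptors on T cells, not all of which bind the ligands named here, had a median of -0.43 over 6 of 9 tested. Of these, 5 were below 0, and the median was -0.14 after normexp. Btla, an inhibitory receptor of T and B cells, was -1.49 and -1.83 in the mutants, against -1.03 and -0.67 in the controls (-0.81 ± 0.22, limma adjusted p = 0.428). The Btla difference was -0.48 after normexp, and the other passing Btla probe gave -0.27. Cd28 (-0.44 ± 0.20, and -0.20 after normexp) and Tnfrsf4 (OX40, -0.29 ± 0.14) were lower on both mutant arrays without reaching an unadjusted p of 0.05. Pdcd1, the receptor for Cd274 and named outside the rule, was -3.59 and -3.69 in the mutants, against -3.10 and -3.27 in the controls (-0.45 ± 0.27), a difference that was -0.00652 after normexp. Ctla4 was not tested, as its probes were not above background on 2 arrays.

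**Figure D4:**
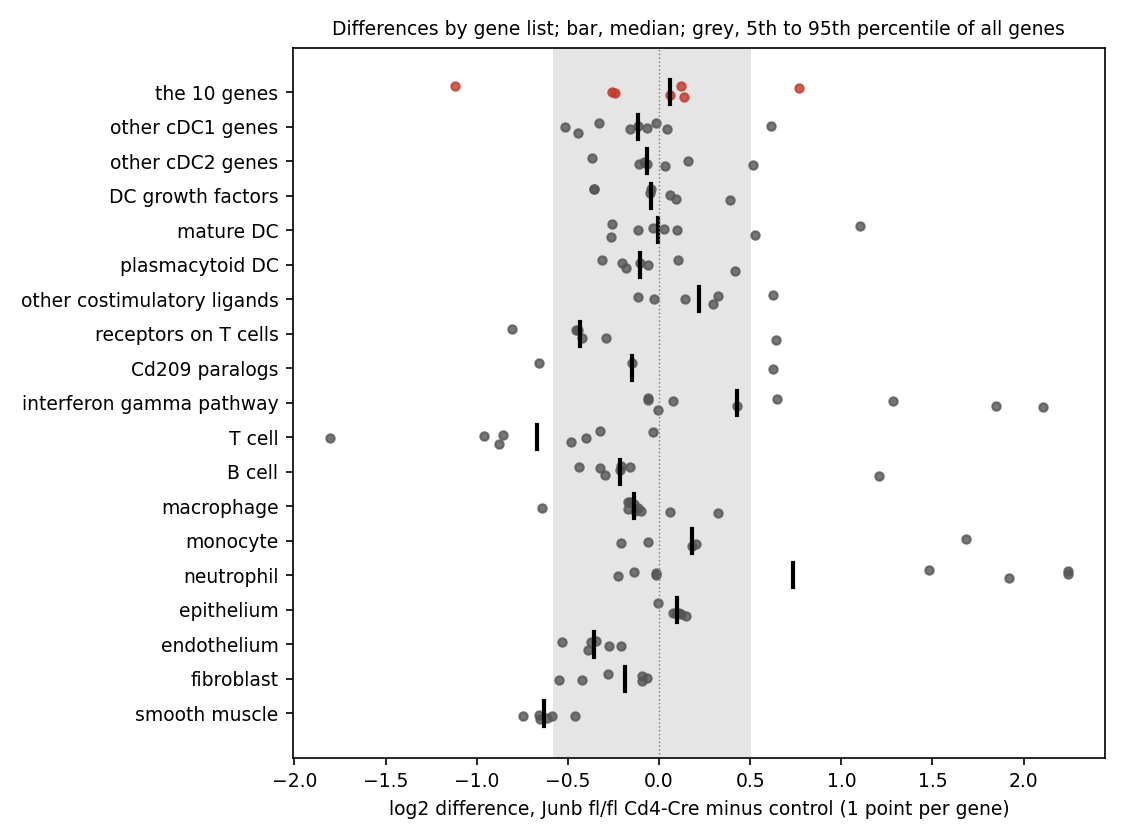
Log2 difference, Junb fl/fl Cd4-Cre minus control, of each tested gene (points) by list, with the list's median as a bar and the 5th to 95th percentile of all genes tested (-0.58 to 0.51) in grey. The red points of the 7 measured genes lie around 0 apart from Cd274 at 0.77 and Cd209a at -1.12, and the T cell and smooth muscle lists lie to the left.

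Genes of interferon gamma signalling and response, to which Cd274 responds in many cell types, were listed because of that relation. The list was chosen with earlier results of these data known, so its counts beside all genes are no test. All 9 were tested: 6 had a difference above 0, and 5 had an unadjusted p under 0.05 with a higher signal in the mutants (median 0.43, and 0.26 under quantile normalization), where 5.31% of all genes tested did. Irf1, 1 of the 5, had an unadjusted p above 0.05 under quantile normalization. Ifng itself was -1.47 and -1.89 in the mutants, against -3.21 and -3.85 in the controls (1.85 ± 0.32), and the difference was 0.94 after normexp. The interferon-induced chemokines Cxcl9 (2.10 ± 0.23) and Cxcl10 (1.28 ± 0.19) were higher on both mutant arrays, as was the transcription factor gene Irf1 (0.43 ± 0.12), named outside the rule. The receptor genes Ifngr1 and Ifngr2 differed by -0.01 ± 0.10 and 0.08 ± 0.14, with overlapping groups. None of the 9 passed the adjusted threshold, and their adjusted p ranged upward from 0.373 for Cxcl9. With the replicate number as a block, which is also a block by sex, Cxcl10 alone of the 9 passed (limma adjusted p = 0.0459). Whether interferon gamma set the level of Cd274 was not tested.

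**Figure D5:**
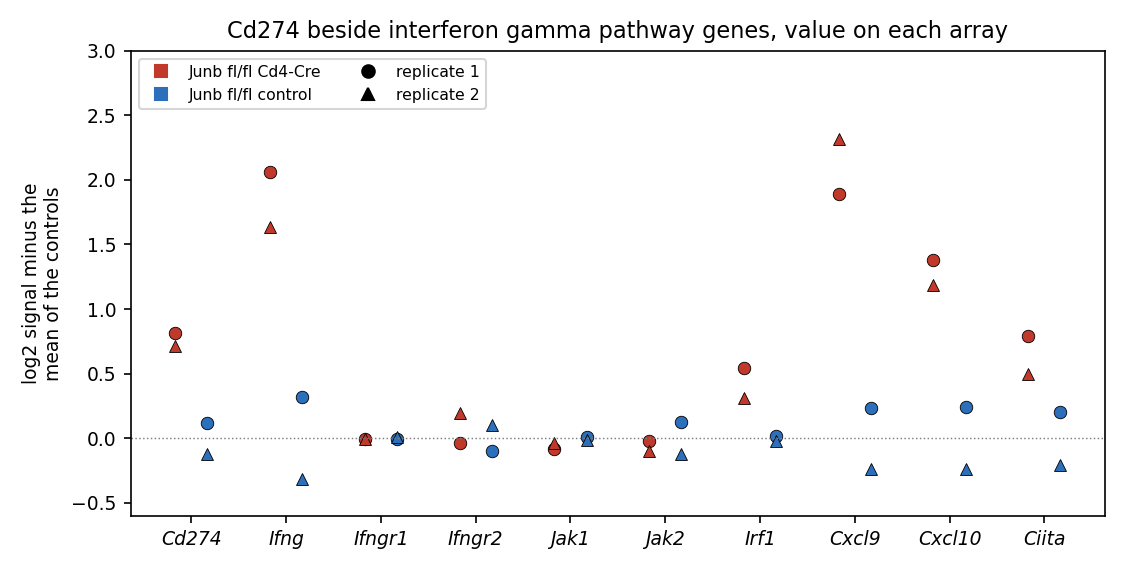
Log2 signal of Cd274 and of 9 interferon gamma pathway genes on each array, minus the mean of the 2 controls, with Junb fl/fl Cd4-Cre in red left of Junb fl/fl control in blue. The mutants lie above the controls for Cd274, Ifng, Irf1, Cxcl9, Cxcl10 and Ciita, and near 0 for the receptor and kinase genes.

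Markers of other cells are given for the same arrays, and without a replicate block none of them passed the adjusted threshold. T cell genes, summed on the linear scale as multiples of that upper quartile, gave 4.05 and 4.17 in the mutants, against 5.99 and 5.25 in the controls, and 8 of 8 had a difference below 0 (median -0.67, and -0.38 after normexp). Of these, Cd8a (measured difference -1.81 ± 0.31) was above background on both control arrays and on neither mutant array. Cd8a passed the filter only through the control arrays, so the filter itself favoured a lower mutant value. Its place among the 8 below 0 is therefore no support for lower T cell genes, and no fold is given. With a filter on all 4 arrays, which leaves Cd8a out, the median was -0.48. Cd4, named outside the rule, differed by -0.03 ± 0.14 with overlapping groups. Smooth muscle genes summed to 177 and 172 in the mutants, against 242 and 266 in the controls, with 6 of 6 below 0. The macrophage sums overlapped between the groups (19.7 and 26.0 in the mutants, against 19.0 and 29.96 in the controls), as did the monocyte sums (384 and 316, against 332 and 289). The brightest genes of a list dominate its sum, which does not measure cell numbers. Plac8 and Ly6c2 had mean log2 signals of 7.44 and 7.22 in the mutants, against 7.26 and 7.02 in the controls. Ccr2 had -2.08 in the mutants and -2.02 in the controls. Ly6c2 and Ccr2 are named outside the rule. Of the macrophage genes, 8 of 10 had a difference below 0 (median -0.14, and 0.25 without control replicate 2). Mrc1 was lower on both mutant arrays (-0.64 ± 0.23).
Neutrophil genes had a median of 0.73 over 8 of 10 tested, with 4 above 0 and 4 below (0.20 without control replicate 1 and 0.39 without mutant replicate 2). Ltf (1.48 ± 0.26) and S100a8 (2.24 ± 0.78) were higher on both mutant arrays, and with the replicate block Ltf, S100a8 and S100a9 passed the adjusted threshold (limma adjusted p = 0.0459, 0.0408 and 0.0236). The 4 below 0 were Ly6g (-0.14 ± 0.30), Camp (-0.22 ± 0.35), Elane (-0.01 ± 0.24) and Csf3r (-0.01 ± 0.13), each with overlapping groups. These 4 and S100a9 are named outside the rule. The neutrophil genes summed to 61.3 and 82.0 in the mutants, against 57.2 and 52.4 in the controls. The brightest of them was Csf3r, with log2 signals of 5.35 and 5.33 in the mutants, against 5.50 and 5.22 in the controls. B cell genes summed to 8.87 and 7.76 in the mutants, against 10.5 and 9.28 in the controls (median difference -0.22, and -0.45 without control replicate 2). Epithelial genes summed to 773 and 797 in the mutants, against 738 and 719 in the controls, with a median difference of 0.10 that was -0.03 under quantile normalization. Fibroblast genes had 6 of 6 differences below 0 (median -0.19, and from -0.57 to 0.15 without 1 array). Their sums overlapped (85.6 and 108 in the mutants, against 85.5 and 135 in the controls). Lum (-0.55 ± 0.16) and Pdgfra (-0.42 ± 0.24) were lower on both mutant arrays. Endothelial genes, whose cells can express Zbtb46 and Cd274, had 6 of 6 differences below 0 (median -0.36, and from -0.61 to -0.13 without 1 array), with overlapping sums of 3.84 and 5.78 in the mutants, against 4.86 and 7.25 in the controls. The part of these shifts in the values of the 10 genes was not tested.

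The promoter of Cd274 is shown because that gene had the clearest difference, and that of Cd80 because it holds matches to 2 of the motifs searched. The windows run from 250 bases before to 50 bases after the transcription start in RefSeq on GRCm38.p6, where 8 of the 10 genes have 1 window each. Both strands were searched for TGANTCA (AP-1, the family of JunB), TTCNNNGAA (the interferon gamma-activated site), GAAA, any 2 bases, GAAA (interferon response) and GGG, any 5 bases, CC (NF-kappaB), and matches are in capitals.
Cd274, chr19:29367188-29367487 (+): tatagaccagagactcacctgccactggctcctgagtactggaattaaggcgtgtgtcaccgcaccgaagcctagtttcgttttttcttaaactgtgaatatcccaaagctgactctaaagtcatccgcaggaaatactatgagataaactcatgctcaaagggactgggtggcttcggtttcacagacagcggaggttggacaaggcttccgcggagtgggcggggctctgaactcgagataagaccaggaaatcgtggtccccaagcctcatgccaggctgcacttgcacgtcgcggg
Cd80, chr16:38458683-38458982 (+): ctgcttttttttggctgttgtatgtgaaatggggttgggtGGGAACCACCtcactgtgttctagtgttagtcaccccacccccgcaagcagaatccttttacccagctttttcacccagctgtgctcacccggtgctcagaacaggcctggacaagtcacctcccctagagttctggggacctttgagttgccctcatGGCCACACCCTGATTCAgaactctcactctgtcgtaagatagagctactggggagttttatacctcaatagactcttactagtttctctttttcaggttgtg

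The Cd274 window held none of the 4 motifs, which says only that these letters are not within it. The Cd80 window held 1 AP-1 match, TGATTCA, and 2 NF-kappaB matches, of which GGCCACACCC ends at the base before the AP-1 match. Of the 8 windows, 2 held the AP-1 motif (Cd80 and Zbtb46) and 2 the NF-kappaB motif (Cd80 and Ly75), and none held either interferon motif. Among 32851 promoter windows in RefSeq, 7.81% held the AP-1 motif, 8.30% the gamma-activated site, 3.44% the interferon response motif and 50.8% the NF-kappaB motif. Matches are letters only and are no evidence of binding.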

How the data were processed

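The authors deposited the linear spot intensity of 4 arrays, and the submitters' processing notes name Agilent Feature Extraction 11.5.1.1. The deposited intensity, per the file headers, was background-subtracted and spatially detrended, with no normalization between arrays, and the deposited flags for background, saturation and outliers are other columns, read as yes or no. All 4 arrays lay on 1 slide and were scanned together.

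The log2 intensity minus the upper quartile of each array over non-control spots was used. Outlier spots were left out, which removed 11 of 56605 probes. Probes well above background on at least 2 arrays were kept, and the brightest represented its gene (19326 genes). Differences were fitted with limma 3.58.1 in R 4.3.3 (intensity trend, two-sided, no block, prior degrees of freedom 3.12), with Benjamini-Hochberg adjustment over all genes, and checked on simulated data. With 2 mice a group, precision is limited by how few arrays there are. Of 131 list genes tested, 43 had several passing probes, of which 8 gave both signs. The array names Vsir by an older symbol.

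The 10 genes and the lists were chosen with earlier results of these data known. The naming rule took all 10, and from each other list up to 3 genes by smallest p (up to 2 for markers). Genes named outside it are said to be so or appear as pathway background, as Flt3l, Ifngr1, Ifngr2 and Ciita do. Alternatives covered background correction, normalization, filter, prior, probe choice, a floor for dim values, a replicate block and each array left out.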

Additional observations from a re-analysis of the deposited data

Results flagged for a closer look

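For 3 of the 7 measured genes the female colons (replicate 1) and the male colons (replicate 2) differed between the genotypes in opposite directions. Ly75 differed by -0.15 (female) and 0.42 (male), Cd80 by -0.0629 and 0.30, and Cd86 by -0.12 and 0.24, each as log2 mutant minus control. A pair holds 1 colon of each genotype, so the difference between the pairs was not tested.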

How the results depend on the processing

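Of 12 alternatives, all kept Cd274 higher in the mutants (0.64 to 0.89), and in none did Cd274 reach an adjusted p under 0.05. Among alternatives fitted to all 4 arrays, its limma p was at most 0.00599 unadjusted and between 0.0931 and 0.495 adjusted. Flt3 (-0.40 to -0.12) and Cd83 (-0.39 to -0.09) kept their sign. Cd209a turned to 0.21, Ly75 to -0.21 and Cd80 to -0.00468 without control replicate 2. Cd86 was -0.00573 without that array and -0.0532 without mutant replicate 2, and 0.597 with all passing probes averaged. Leaving out 1 array in turn gave Cd209a from -2.46 to 0.21, Ly75 from -0.21 to 0.48, Cd80 from -0.00468 to 0.25 and Cd86 from -0.0532 to 0.17. The median of the measured genes ranged from -0.0532 to 0.12 without 1 array, and was -0.11 without the filter on dim probes, which moved the median of all genes to -0.12, and 0.12 with all passing probes averaged. The count of genes at least 2-fold different at an unadjusted p under 0.05 was 263, and 85 with normexp, 571 without the filter, 156 with a filter on all 4 arrays and from 340 to 500 without 1 array. With a replicate block, which here is also a block by sex, 46 genes passed the adjusted threshold, none of them among the 10 (Cd274 adjusted p = 0.0931) and Cxcl10 among them (adjusted p = 0.0459), against 0 without it. Replicate numbers are not stated to pair mice, and deviations of same-numbered arrays correlated at 0.239 across genes. A slide block could not be run with 1 slide. With a filter on all 4 arrays Cd209a was not tested. The causes of these changes were not tested.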
